A study of Mus musculus with 6 samples.

Results

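The genes described here are 7 aquaporins, Aqp1, Aqp3, Aqp4, Aqp5, Aqp7, Aqp9 and Aqp11, taken by name from a count table of 18180 mouse genes. All 7 were found. By NCBI gene identifier they are Aqp1 (11826), Aqp3 (11828), Aqp4 (11829), Aqp5 (11830), Aqp7 (11832), Aqp9 (64008) and Aqp11 (66333). Aqp3 and Aqp7 are neighbours on chromosome 4, Aqp1 is on chromosome 6, Aqp11 on 7, Aqp9 on 9 and Aqp5 on 15 (RefSeq, GRCm38). The table covers tail skin from Mettl3fl/fl mice in 2 groups of 3 libraries, and all of these mice carry the floxed Mettl3 alleles. Control libraries came from animals without the Cre transgene (K14creERT2-/-), sampled from normal tails. The other libraries, labelled cKO, came from animals with K14creERT2+/-, a tamoxifen-activated Cre driven by the keratin 14 promoter of basal keratinocytes, and were sampled from tail areas with spontaneous inflammation. Per the series' design text, mice received tamoxifen on 5 consecutive days and tissue was taken 4 weeks later. Ages are not stated, and the labels do not say if each library is another animal. The p-values therefore rest on the spread among these libraries, and that spread may be technical. Genotype and inflamed tissue went together in this design and cannot be told apart.

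Aquaporins are membrane channels that form tetramers, with a separate pore through each subunit. The classical members pass water (Aqp1, Aqp4, Aqp5), while the aquaglyceroporins (Aqp3, Aqp7, Aqp9) also pass glycerol and other small solutes, and Aqp11 belongs to a divergent branch found on intracellular membranes. In skin, Aqp3 of keratinocytes is known for supplying glycerol and water to the epidermis. Aqp1 is known from endothelium and red blood cells, Aqp5 from sweat, salivary and lacrimal glands, Aqp7 from fat cells, Aqp9 from liver and leukocytes, and Aqp4 from brain and skeletal muscle.

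Library totals ran from 35855880 to 37043849 counts. The limit allowed by a count of 0, set at 3 counts, was 0.0810 to 0.0837 CPM (counts scaled to the library total). Such limits cover counting error only. For the targeted gene, counts were higher in the libraries labelled cKO. They cover the whole gene and all cells of the skin, and loss of the floxed part was not tested. Mettl3 had 440, 389 and 337 counts in the control libraries against 569, 512 and 540 counts in those labelled cKO and rose 1.40-fold (log2 fold change 0.48, SE 0.11, adjusted p = 0.000102). Of 15061 genes tested, 61.4% passed an adjusted p of 0.05, 30.8% as higher and 30.6% as lower. Counts of aquaporins and of every other gene list are to be read against these shares.

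For the promoters, RefSeq windows of the 250 bases before each annotated start (build GRCm38.p6, matched by symbol) were used for 6 of the 7 genes. Aqp4 was left out. The windows of Aqp5, Aqp7 and Aqp11 and the first of the 2 starts listed for Aqp9 overlap annotated exons of aquaporin genes. Those windows are not printed, and exons of other genes were not checked. The remaining windows are shown because they belong to 2 aquaporins that rose, Aqp3 and Aqp9, and to the abundant Aqp1, which did not pass the test. They read 5′ to 3′ on the strand of the gene, with motif matches in capitals.
Aqp3 (chr4:41098184-41098433, minus strand): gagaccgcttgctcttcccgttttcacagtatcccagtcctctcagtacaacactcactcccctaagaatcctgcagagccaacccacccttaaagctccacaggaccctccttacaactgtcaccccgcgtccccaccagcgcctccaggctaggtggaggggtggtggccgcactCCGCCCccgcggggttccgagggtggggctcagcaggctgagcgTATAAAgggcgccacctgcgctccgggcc
Aqp9, second start (chr9:71162634-71162883, minus strand): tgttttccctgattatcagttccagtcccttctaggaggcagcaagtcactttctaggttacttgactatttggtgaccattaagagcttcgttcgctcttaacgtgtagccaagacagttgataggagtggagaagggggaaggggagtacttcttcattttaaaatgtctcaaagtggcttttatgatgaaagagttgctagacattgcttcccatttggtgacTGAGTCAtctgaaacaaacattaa
Aqp1 (chr6:55336049-55336298, plus strand): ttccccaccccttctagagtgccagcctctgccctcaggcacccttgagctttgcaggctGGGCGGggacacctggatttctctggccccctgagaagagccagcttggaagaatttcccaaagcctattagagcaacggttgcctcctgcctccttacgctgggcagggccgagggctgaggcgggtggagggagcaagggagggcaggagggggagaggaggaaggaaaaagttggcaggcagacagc
Motifs were searched on both strands, and no matches of different motifs overlapped in these windows. The TATA box (TATAAA) is in 12.4% of 32851 RefSeq windows of this length, the GC box (CCGCCC) in 32.7%, the AP-1 motif (TGANTCA) in 6.75%, the STAT motif (TTCNNNGAA) in 7.02%, the E-box (CACGTG) in 6.02% and the nuclear receptor half-site (AGGTCA) in 14.0%. Aqp3 had a TATA box that begins 29 bases before the start and a GC box. Aqp9 had an AP-1 match that begins 24 bases before its second start, and Aqp1 had a GC box. The Aqp5 window, at 78.4% G and C with 38 CpG against a median of 52.4% and 6 over all windows, held an E-box and a GC box at 2 places. No searched motif was found in all 3 of the genes that rose. A match describes letters in these windows and does not show binding.

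Aqp3 held most aquaporin transcript in both groups, and Aqp1 came next. Aqp5 and Aqp9 were far lower in control, and Aqp9 also in the libraries labelled cKO. These levels are compared between genes per length, as FPKM (fragments scaled to gene length and library total), which the authors deposited. Aqp3 had 299, 288 and 296 FPKM in control against 409, 407 and 410 FPKM in those labelled cKO. By FPKM it lay above 98.5% of all genes in the control libraries and above 98.9% in those labelled cKO. Aqp1 had 65.6 ± 2.72 FPKM (SD, n = 3) in control against 66.3 ± 0.410 FPKM in those labelled cKO. Aqp9 (4.79 ± 0.631 FPKM) and Aqp5 (4.43 ± 0.677 FPKM) had overlapping ranges in control, with Aqp9 above Aqp5 within each of the 3 libraries. In the libraries labelled cKO, Aqp5 at 32.0 ± 0.819 FPKM stood clear of Aqp9 at 6.89 ± 0.416 FPKM. Below these, the mean levels of Aqp11, Aqp7 and Aqp4 ranged from 0.0196 to 0.294 FPKM, and Aqp11 and Aqp7 did not differ beyond their spread in either group.

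The summed FPKM of the 7 genes went from 370 ± 6.54 in control to 514 ± 1.18 in the libraries labelled cKO. The share of Aqp3 in that sum was 79.7% ± 0.448 in control against 79.4% ± 0.170 in those labelled cKO, and the groups overlapped. The share of Aqp1 was 17.7% ± 0.531 and 12.9% ± 0.107 in the same order, without overlap. That of Aqp5 was 1.201% ± 0.207 and 6.22% ± 0.170, also without overlap. Aqp9 made up 1.30% ± 0.195 and 1.34% ± 0.0778, and its groups overlapped.

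**Figure D1:**
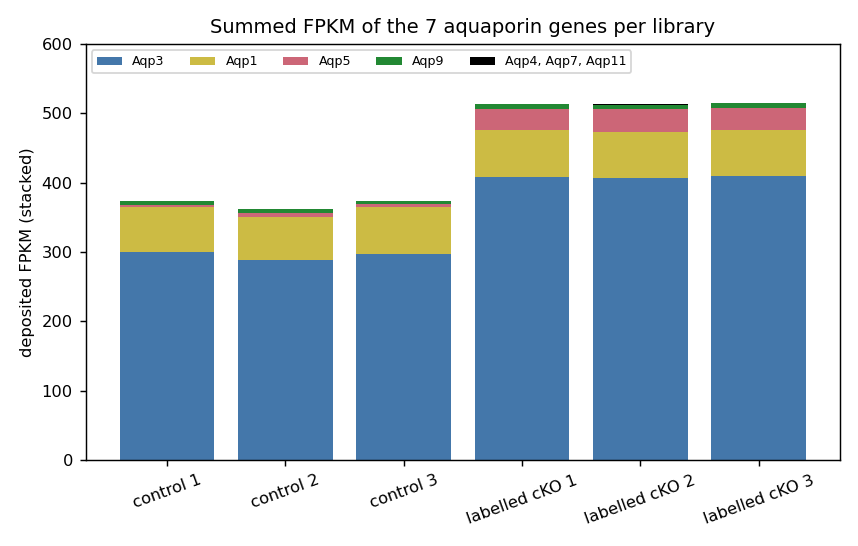
Deposited FPKM of the 7 aquaporin genes, stacked for each of the 6 libraries, with libraries on the x axis and FPKM on the y axis. Aqp3 takes the largest part of every bar, the Aqp1 part stays near 65.6 to 66.3 FPKM on average, and the Aqp5 part widens from 4.43 to 32.0 FPKM.

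Of the 7 genes, 6 passed the low-count filter, and 3 of those, Aqp3, Aqp5 and Aqp9, rose in the libraries labelled cKO while none fell. Over all tested genes 61.4% passed the test, 30.8% as higher and 30.6% as lower. In Aqp3, Aqp5 and Aqp9 every library labelled cKO lay above every control library. That held for 32.6% of all tested genes, and 64.9% had groups without overlap in either direction. Aqp1, Aqp7 and Aqp11 did not pass the test, and Aqp4 had too few counts to be tested. From here on, levels are CPM of the TMM-scaled libraries as mean ± SD (n = 3 in each group), fold changes are those of the libraries labelled cKO against control, and adjusted p-values are from edgeR's quasi-likelihood test with Benjamini-Hochberg adjustment over all genes tested.

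**Figure D2:**
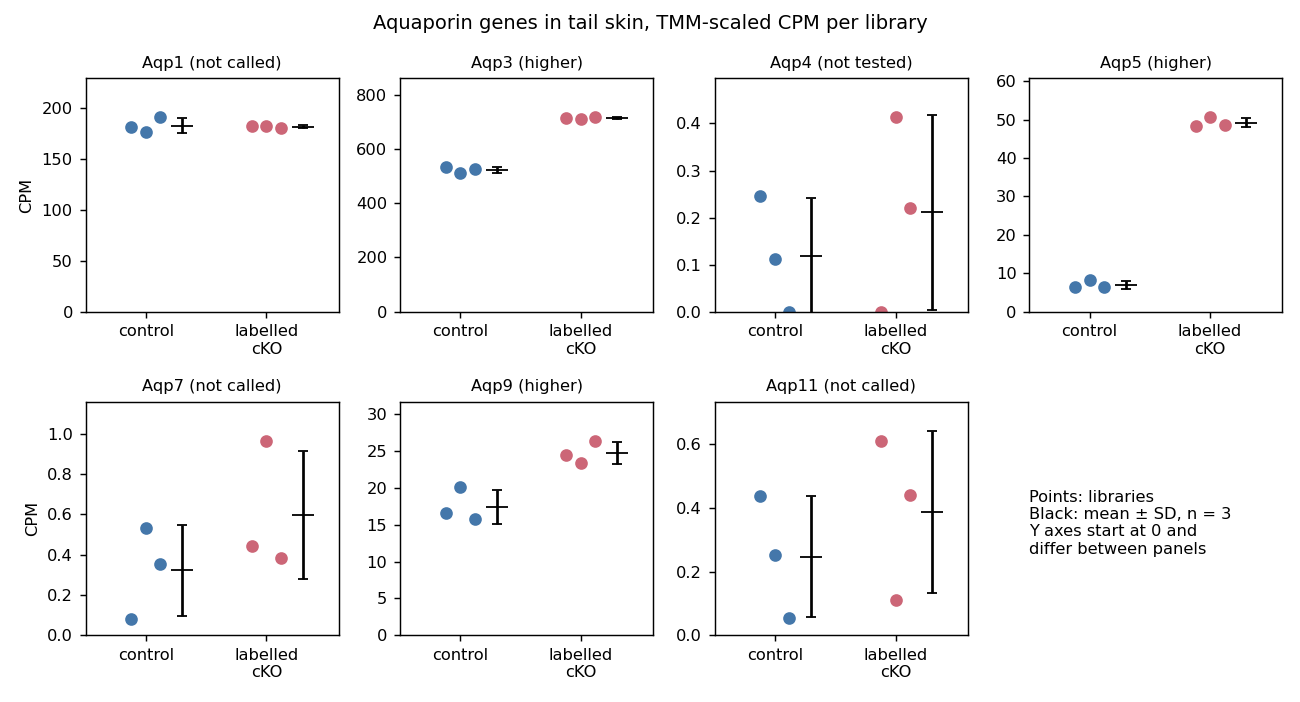
TMM-scaled CPM (y axis, from 0, different in each panel) of each aquaporin gene in control libraries and libraries labelled cKO, with points for libraries and black marks for mean ± SD over n = 3. Aqp3, Aqp5 and Aqp9 show no overlap between groups, Aqp1 stays at 182 against 181 CPM, and Aqp4, Aqp7 and Aqp11 lie below 1 CPM with wide spread.

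Aqp3, the aquaglyceroporin of keratinocytes, rose 1.36-fold. It had 19552, 18324 and 19341 counts in the control libraries against 25839, 25804 and 26105 counts in those labelled cKO. All libraries labelled cKO were high and close to each other, and the groups were well apart. In CPM it went from 524 ± 10.9 to 714 ± 3.47 (log2 fold change 0.45, SE 0.017, adjusted p = 4.68e-36). When the biological coefficient of variation (BCV) was set to 20% instead of being estimated from the libraries, the adjusted p was 0.173.

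Keratinocyte markers went both ways in the same libraries. In the basal keratinocyte list, 5 of 10 genes rose and 5 fell (median log2 fold change 0.00), and the summed level went from a range of 10066 to 10279 CPM in control to 13328 to 13624 CPM. Krt5, a keratin of basal cells, rose 1.13-fold (from 3541 ± 16.8 to 3996 ± 24.3 CPM), and its partner Krt14 rose 1.85-fold (from 4157 ± 89.5 to 7687 ± 134 CPM). The ratio of Aqp3 to Krt5 in FPKM was higher in the libraries labelled cKO, at 0.224 ± 0.00143 against 0.185 ± 0.00471. The ratio of Aqp3 to Krt14 was lower, at 0.0907 ± 0.00141 against 0.123 ± 0.00472. Neither ratio overlapped between groups (exact permutation p = 0.1, two-sided, n = 3 per group, the smallest this design can give, and 0.1 after adjustment over 6 ratios). In the suprabasal list 5 of 10 genes rose and 5 fell (median 0.22), with Krt1 at 9.44-fold and Krt10 at 1.40-fold higher. In bulk tissue, a change in the number of cells of a type and in RNA per cell cannot be told apart. The part of keratinocyte content in the Aqp3 rise was not tested.

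Aqp5, a water channel of secretory glands, had the largest difference of the 6 tested aquaporins, at 7.11-fold higher. It had 232, 292 and 232 counts in the control libraries against 1745, 1838 and 1773 counts in those labelled cKO. Every library labelled cKO was several times above the highest control library. In CPM it went from 6.93 ± 1.06 to 49.2 ± 1.22 (log2 fold change 2.83, SE 0.083, 95% interval 2.66 to 2.995, adjusted p = 2.06e-43). A rise at least this large was found in 142 of the 15061 tested genes (0.943%), and 5.98% rose at least 2-fold. By FPKM it lay above 55.0% of all genes in the control libraries and above 88.5% in those labelled cKO. The ratio of Aqp5 to Aqp9 in FPKM was 0.893, 0.947 and 0.934 in control against 4.60, 5.05 and 4.31 in those labelled cKO, without overlap (exact permutation p = 0.1, two-sided, n = 3 per group). Aqp3 exceeded Aqp5 by 67.6 ± 10.7 times in control and by 12.8 ± 0.371 times in the libraries labelled cKO.

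Markers of sweat and other secretory glands did not rise with Aqp5 as a list. Of the 8 listed genes found, 7 were tested, of which 1 rose and 3 fell (median log2 fold change -0.34), and their summed level was 148 to 150 CPM in control and 103 to 112 CPM in the libraries labelled cKO. The first listed marker, the muscarinic receptor gene Chrm3, had 12, 9 and 3 counts in the control libraries against 20, 24 and 12 counts in those labelled cKO (adjusted p = 0.0942). Bsnd, a chloride channel subunit of sweat glands, had 16, 20 and 9 counts and 12, 3 and 4 counts in the same order (adjusted p = 0.127). Krt7, a keratin of simple and glandular epithelia, fell 3.37-fold (from 20.1 ± 0.839 to 5.96 ± 1.07 CPM), and Ano1, a chloride channel of secretory cells, fell 1.39-fold. The potassium channel gene Kcnn4 was the listed gene that rose (from 2.18 ± 0.309 to 4.09 ± 1.32 CPM). The part of gland cells in the Aqp5 values was not tested.

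In the GRCm38 annotation Aqp5 lies between Aqp2 and Aqp6 and these neighbours stayed near the limit of detection. Aqp2, the vasopressin-regulated channel of the kidney, had 11, 16 and 1 counts in the control libraries against 16, 15 and 19 counts in those labelled cKO, a log2 fold change of 0.83 (SE 0.65, adjusted p = 0.272). Aqp6 had 5 counts over the control libraries and 3 counts over the libraries labelled cKO and was not tested. Racgap1, a cell division gene beyond Aqp6, rose 1.74-fold (from 20.4 ± 1.61 to 35.5 ± 1.73 CPM). Gm34765 is annotated over Aqp5, and without a stated strand setting, reads of overlapping genes cannot be told apart.

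Aqp9, an aquaglyceroporin of liver and leukocytes, rose 1.42-fold. It had 606, 719 and 579 counts in the control libraries against 884, 848 and 958 counts in those labelled cKO. Control replicate 2 was the highest control library, and all libraries labelled cKO were above it. In CPM it went from 17.4 ± 2.30 to 24.7 ± 1.498 (log2 fold change 0.50, SE 0.086, 95% interval 0.33 to 0.68, adjusted p = 5.77e-07). With an assumed BCV of 20% the adjusted p was 0.123. Gm32714 is annotated over Aqp9, with the same limit as for Aqp5.

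Neutrophil and macrophage markers were higher in the same libraries. Of 12 neutrophil markers in the table, all 11 tested ones rose (median log2 fold change 4.49), and their summed level went from a range of 107 to 116 CPM to 3642 to 3699 CPM. S100a8 and S100a9 made up most of that sum in the libraries labelled cKO and are also made by keratinocytes. Cxcr2, a chemokine receptor of neutrophils, rose 1.69-fold (from 4.77 ± 1.01 to 8.05 ± 0.903 CPM), and Csf3r, the receptor for G-CSF, rose 6.64-fold (from 1.74 ± 0.425 to 11.6 ± 0.740 CPM). Ly6g, which defines mouse neutrophils, had 6 counts over the control libraries and 15 counts over the libraries labelled cKO and was not tested. Of 10 macrophage markers 9 rose (median 0.55), among them Adgre1 at 2.05-fold and Csf1r at 1.198-fold, and the list's summed level went from 819 to 829 CPM to 1186 to 1209 CPM. The basal and suprabasal keratinocyte lists, given with Aqp3, were planned for Aqp9 too. In each of them 5 of 10 genes rose and 5 fell. The part of any of these cell types in the Aqp9 or Aqp5 rise was not tested.

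**Figure D3:**
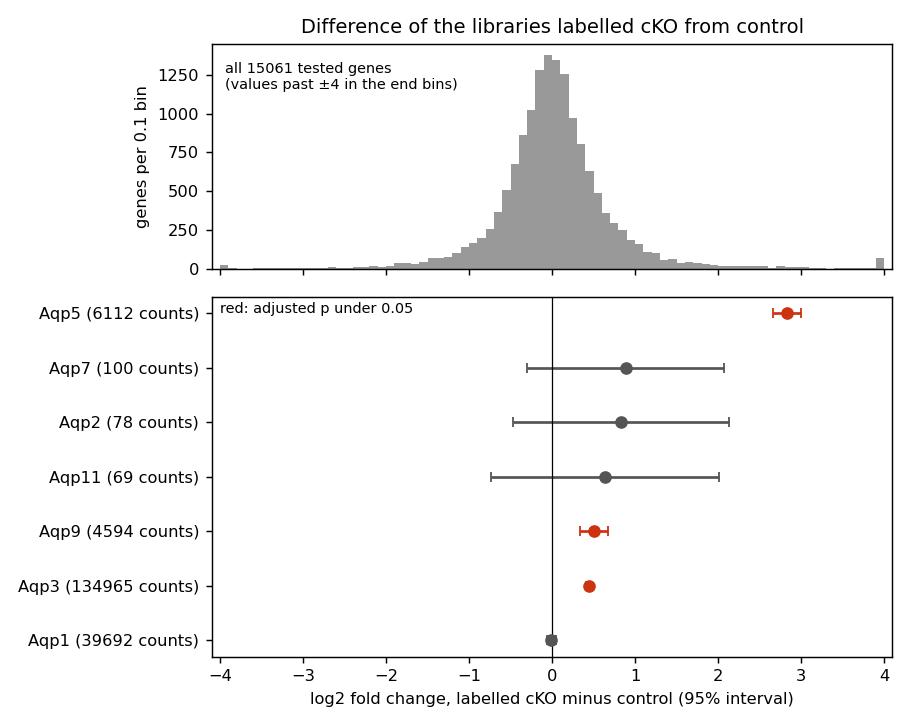
The upper panel counts the 15061 tested genes by log2 fold change, and the lower panel gives the log2 fold change with its 95% interval for the 7 tested genes of the family, Aqp2 included, with total counts over 6 libraries. Aqp5 stands at 2.83, Aqp9 and Aqp3 at 0.50 and 0.45, Aqp1 at -0.01, and the genes with 69 to 100 counts have intervals that cross 0.

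Aqp1, the water channel of endothelium and red blood cells, was abundant and did not pass the test. It had 6644, 6300 and 7000 counts in the control libraries against 6579, 6611 and 6558 counts in those labelled cKO. Every library labelled cKO lay within the range of the control libraries. In CPM it was 182 ± 7.48 in control against 181 ± 1.13 in those labelled cKO. The log2 fold change was -0.01 with a 95% interval from -0.07 to 0.05 (adjusted p = 0.818), and its sign turned under other scalings (0.02 with upper quartile scaling, 0.02 with library size only). The ratio of Aqp3 to Aqp1 in FPKM was 4.495 ± 0.149 in control against 6.16 ± 0.0620 in those labelled cKO, without overlap (exact permutation p = 0.1, two-sided, n = 3 per group).

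The markers of its 2 known cell sources moved in opposite directions. In the endothelial list 8 of 13 genes rose and none fell (median log2 fold change 0.38), and the summed level went from 368 to 374 CPM to 467 to 481 CPM. Pecam1 and Cdh5, junction proteins of endothelial cells, rose 1.24-fold (from 72.8 ± 3.03 to 90.7 ± 1.99 CPM) and 1.46-fold (from 23.8 ± 2.10 to 34.7 ± 0.927 CPM). All 6 tested red cell genes of 9 in the table fell (median -0.93), and their summed level went from 123 to 136 CPM to 74.7 to 75.6 CPM. The haemoglobin genes Hba-a1 and Hbb-bs fell 1.71-fold and 1.52-fold, though near-identical globin copies can share reads. The ratio of Aqp1 to Pecam1 in FPKM was 3.03 ± 0.230 in control against 2.42 ± 0.0447 in those labelled cKO, without overlap (exact permutation p = 0.1, two-sided, n = 3 per group). The part of either cell type in the Aqp1 level was not tested.

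Aqp7, the glycerol exit channel of fat cells, was close to the limit of detection. It had 3, 19 and 13 counts in the control libraries against 16, 35 and 14 counts in those labelled cKO. The groups overlapped, with the lowest value in control replicate 1 and the highest in replicate 2 labelled cKO. The log2 fold change was 0.89 with a 95% interval from -0.30 to 2.08 (adjusted p = 0.195), and a difference was not detectable in these libraries. It was 0.43 without control replicate 1, 1.44 without control replicate 2 and 0.36 without replicate 2 labelled cKO. Aqp3 lies next to it in the annotation and had far more counts.

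Fat cell and sebaceous gland markers were lower in the same libraries. Of 10 fat cell markers 8 fell and 1 rose (median log2 fold change -0.72), and their summed level went from 772 to 786 CPM to 599 to 606 CPM. Adipoq, the adiponectin gene, fell 1.90-fold (from 51.6 ± 0.726 to 27.1 ± 0.826 CPM), and the lipid droplet gene Plin1 fell 1.73-fold (from 30.5 ± 2.72 to 17.6 ± 0.300 CPM). Of 10 sebaceous gland markers 9 fell (median -1.12), with Scd3 at 7.41-fold and Mgst1 at 1.74-fold lower. Their part in the Aqp7 values was not tested.

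Aqp11, of the intracellular branch, had 16, 9 and 2 counts in the control libraries against 22, 4 and 16 counts in those labelled cKO. The groups overlapped. The log2 fold change was 0.64 with a 95% interval from -0.73 to 2.01 (adjusted p = 0.432), and it ran from 0.15 to 1.33 when each library was left out in turn. The lowest of these values came without replicate 1 labelled cKO and the highest without control replicate 1, and it was 0.17 without control replicate 3 and 1.08 without replicate 2 labelled cKO. A difference in Aqp11 was not detectable in these libraries.

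Aqp4, the channel of astrocytes and fast muscle fibres, had 9, 4 and 0 counts in the control libraries against 0, 15 and 8 counts in those labelled cKO. A library without a count stood in each group, which allows up to 0.0811 CPM in control replicate 3 and up to 0.0837 CPM in replicate 1 labelled cKO. Skeletal muscle markers summed to 20 to 28.3 CPM in control and 29.4 to 47.8 CPM in the libraries labelled cKO, and 2 of 10 tested genes rose. Acta1 (73, 124 and 61 against 182, 348 and 86 counts, adjusted p = 0.162) was not called, and Ckm rose 1.72-fold (from 1.90 ± 0.549 to 3.28 ± 1.05 CPM). All 9 Schwann cell and nerve genes fell (median log2 fold change -0.72), among them Sox10 at 1.38-fold lower. Their part in the Aqp4 counts was not tested.

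The other aquaporins of the table, Aqp2 apart, were at or near 0. Aqp8 had 1 count over the control libraries and 7 counts over the libraries labelled cKO, and Aqp12 had 1 and 9 counts. Neither was tested, and Mip was not analysed here.

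**Figure D4:**
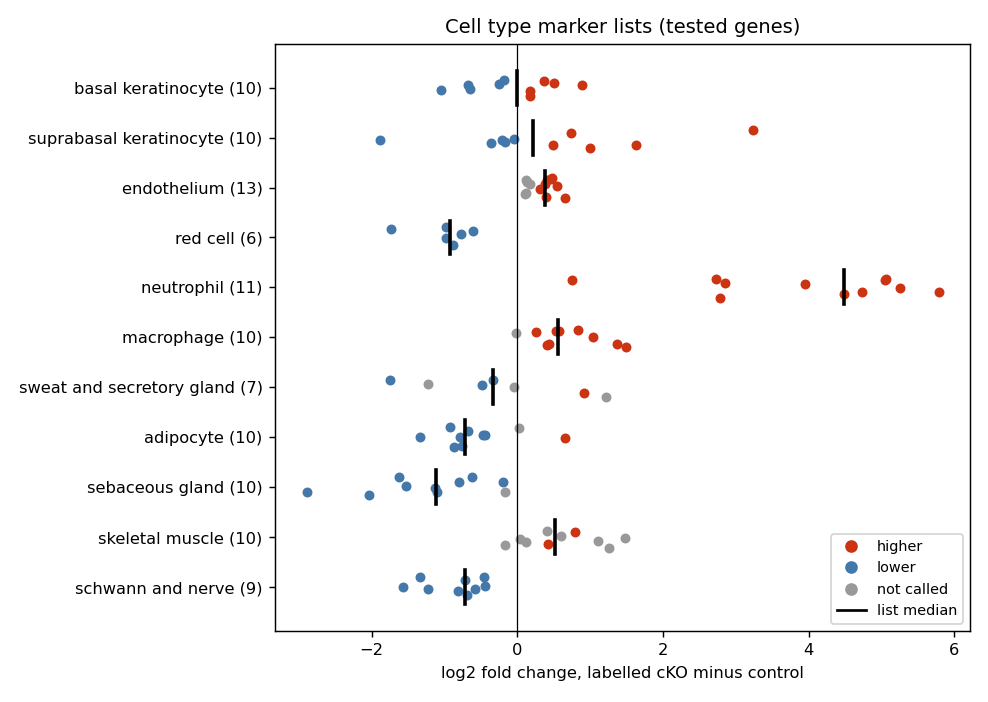
Log2 fold change (x axis) of the tested genes of 11 cell type marker lists, with the number of tested genes in brackets, red for higher, blue for lower, grey for not called and a black bar at each list's median. Neutrophil genes lie farthest to the right with a median of 4.49, sebaceous gland genes farthest to the left with a median of -1.12, and the basal keratinocyte list divides around 0.

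Glycerol handling genes, which make, store and release the glycerol that aquaglyceroporins carry, went both ways with more falls than rises. Of 27 listed genes 25 were tested, 8 rose and 13 fell (median log2 fold change -0.35, against 0.00 over all 15061 tested genes, of which 30.8% rose and 30.6% fell). Gk, the glycerol kinase gene, rose 1.95-fold (from 29.1 ± 4.39 to 56.9 ± 0.763 CPM, adjusted p = 2.45e-18), while Gk5, a skin glycerol kinase-like gene, fell 3.62-fold (from 243 ± 3.76 to 67.1 ± 2.59 CPM, adjusted p = 9.25e-59). Gpd2, the mitochondrial glycerol-3-phosphate dehydrogenase gene, rose 1.78-fold (from 15.2 ± 1.43 to 27.2 ± 1.74 CPM). Mgll, which releases glycerol from monoglycerides and was the most abundant of the list, fell 2.50-fold (from 709 ± 3.73 to 284 ± 2.96 CPM). The triglyceride synthesis genes Gpam and Lpin1 fell 1.89-fold (from 163 ± 2.13 to 86.1 ± 0.707 CPM) and 1.88-fold (from 18.3 ± 0.616 to 9.74 ± 0.604 CPM). Pld2, a phospholipase D known to act with Aqp3 in keratinocytes and chosen after its values were seen, rose 1.22-fold (from 65.0 ± 7.48 to 79.4 ± 0.955 CPM). The fat cell and sebaceous gland markers above fell in the same libraries, and Plin1 stands in both this list and the fat cell list. With an assumed BCV of 20%, 2 of the genes rose and 9 fell.

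Genes of hydrogen peroxide production were listed because Aqp3 also passes hydrogen peroxide. Of 18 listed genes 17 were tested, 10 rose and 2 fell (median log2 fold change 0.23). Over all tested genes 30.8% rose and 30.6% fell. Ncf4, a subunit of the phagocyte oxidase, rose 2.51-fold (from 1.97 ± 0.318 to 4.96 ± 0.572 CPM), Rac2, the small GTPase of blood cells, rose 2.05-fold (from 5.54 ± 0.874 to 11.4 ± 1.07 CPM), and Cyba rose 1.55-fold (from 26.9 ± 0.659 to 41.6 ± 1.93 CPM). Nox4 passed the test narrowly with overlapping groups (from 1.59 ± 0.928 to 2.54 ± 0.404 CPM, adjusted p = 0.0472). Rac1, the most abundant of the list, rose 1.17-fold (from 207 ± 2.10 to 243 ± 2.03 CPM). Noxo1 and Sod1 fell 1.81-fold and 1.36-fold. Duox1, the dual oxidase of keratinocytes, chosen after its values were seen, rose 1.34-fold (from 33.8 ± 0.903 to 45.4 ± 1.47 CPM). Duox2, Duoxa1 and Duoxa2 of the same list were not called (adjusted p = 0.804, 0.0774 and 0.863). Neutrophil and macrophage markers rose in the same libraries, as given above, and their part was not tested. With an assumed BCV of 20%, 3 genes rose and 2 fell.

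Genes of osmotic and volume regulation went both ways. Of 22 listed genes 20 were tested, 7 rose and 6 fell (median log2 fold change 0.04), near the 30.8% higher and 30.6% lower over all tested genes. Akr1b3, the aldose reductase that makes sorbitol, rose 1.68-fold (from 39.2 ± 1.07 to 65.7 ± 3.07 CPM, adjusted p = 3.47e-21). Slc14a1, a urea transporter, rose 1.49-fold (from 3.43 ± 0.267 to 5.11 ± 0.850 CPM), the volume-regulated anion channel gene Lrrc8c rose 1.41-fold (from 9.41 ± 0.564 to 13.3 ± 1.12 CPM), and Scnn1b of the epithelial sodium channel rose 1.38-fold (from 7.76 ± 0.559 to 10.7 ± 1.39 CPM). Slc6a6, the taurine transporter and the most abundant of the list, fell 2.11-fold (from 511 ± 2.66 to 242 ± 4.48 CPM, adjusted p = 1.21e-55), and the kinase gene Wnk4 fell 1.70-fold. With an assumed BCV of 20%, 1 gene rose and 3 fell.

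**Figure D5:**
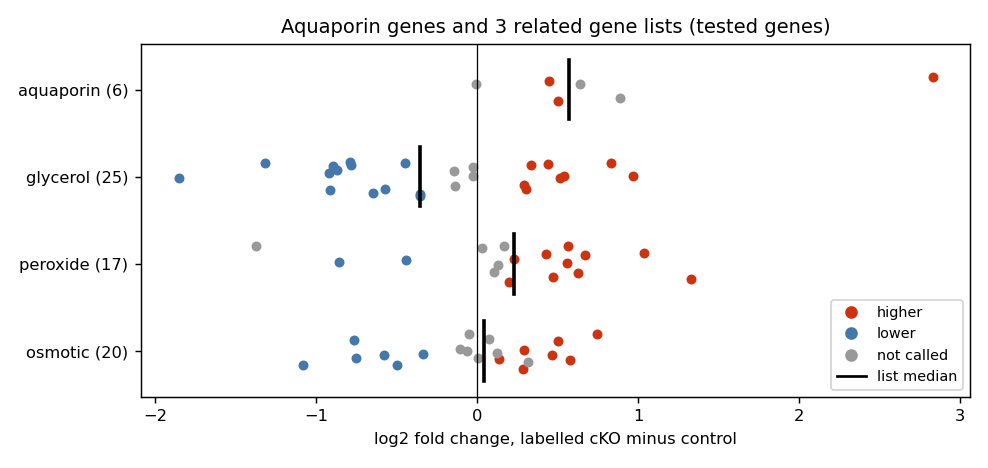
Log2 fold change (x axis) of the tested aquaporin genes and of 3 related gene lists, with the number of tested genes in brackets, red for higher, blue for lower, grey for not called and black bars at list medians. Aqp5 is the aquaporin point near 2.83, the glycerol list has its median at -0.35, and the osmotic list divides around 0.04.

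To place the 3 genes that rose among other transcripts, their profiles over the 6 libraries were compared with those of 11211 genes, each as log2 CPM centred on its own mean. For Aqp5 the nearest were Clec4d, a C-type lectin of myeloid cells (from 2.68 ± 0.421 to 18.5 ± 0.201 CPM), and Csf3r, at root mean square distances of 0.089 and 0.110. For Aqp3 they were Eef1g, a translation elongation factor gene, and Calml3, a calmodulin-like gene of epithelia, at distances of 0.011 and 0.013. For Aqp9 they were Wnt10a and Polr3d, at 0.034 and 0.035. With 6 libraries in 2 groups these distances mostly record the size of the group difference, and within a distance of 0.1 there were 1153 genes for Aqp3, 123 for Aqp9 and 1 for Aqp5. The compared genes had a mean of at least 5 CPM over the 6 libraries, which Clec4d and Csf3r reached only through those labelled cKO.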

How the data were processed

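Per the labels' protocols, TRIzol was used to isolate RNA of tail skin, and libraries were prepared with a VAHTS Universal V5 kit. The authors deposited counts per gene, which are whole numbers, and FPKM for the same 18180 genes. The submitters' processing notes name fastp, HISAT2, HTSeq and build mm39 without versions. For the annotation, the strand setting and reads with several alignments, nothing is stated in the sources used here. For all 18180 genes the deposited FPKM equal counts over a whole-number length and the library total (relative tolerance 1e-06).

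Differences were tested on the counts in R 4.3.3 with edgeR 4.0.16: filterByExpr (minimum count 10, minimum total 15), TMM scaling, the robust quasi-likelihood test with group as the only term, and Benjamini-Hochberg adjustment over 15061 genes. A gene was called at an adjusted p under 0.05. Each standard error is the size of the log2 fold change over the root of its F statistic, and fold changes come from the fit. Ratios were tested by exact permutation. The edgeR steps were tested on simulated data.

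Members and lists were chosen with earlier results of these data known. Of 195 listed names 192 matched by symbol. The text names all members and other aquaporins. From each pathway list it names up to 4 called genes in the majority direction, up to 2 in the other (minimum 1 CPM in whichever group is higher), and the most abundant. It names the first 2 markers of each cell type and the 2 nearest profiles of each gene that rose (mean of at least 5 CPM over the 6 libraries). Some genes that this rule or the lists hold are not reported here. Other genes named with values from the lists were chosen after their values were seen, among them Krt7, Ano1, Kcnn4, S100a8, S100a9, Ly6g, Racgap1, Pld2 and Duox1. Alternatives were DESeq2 1.42.0, voom of limma 3.58.1, other scalings, filters and thresholds, limma on log2 FPKM, a replicate block, assumed BCVs, leaving out muscle and red cell genes, and leaving out each library.

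Same-numbered libraries of the 2 groups did not deviate together. Between libraries of a group, the spread of counts was 3.94 to 4.15 times sampling noise (chi-square over degrees of freedom), so no library was a copy of another. Reference coordinates are on GRCm38, another build than that of the counts, and are given for promoter windows only.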

Additional observations from a re-analysis of the deposited data

How the results depend on the processing

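Aqp5 was higher and passed the threshold under all 21 alternatives tried, with log2 fold changes from 2.61 to 2.96. Aqp3 and Aqp9 were higher under all 21 and passed under 19 of them. The exceptions were the assumed BCVs of 20% and 40%. There Aqp3 had a log2 fold change of 0.45 under both (adjusted p = 0.173 and 0.971) and Aqp9 had 0.50 under both (adjusted p = 0.123 and 0.926), by edgeR's likelihood ratio test. For Aqp3 and Aqp9 these settings assume a spread larger than that between the libraries. This does not hold for the low-count genes Aqp7 and Aqp11. At a BCV of 20% their adjusted p-values by the likelihood ratio test were 0.0732 and 0.306. The quasi-likelihood test had given 0.195 and 0.432. Under BCVs of 20% and 40% the genes called numbered 3361 and 774 in all, 1 and 1 among the aquaporins, 11 and 1 in the glycerol list, 5 and 0 in the peroxide list and 4 and 0 in the osmotic list. At a BCV of 40%, 3 genes of the peroxide list and 1 of the osmotic list had an unadjusted p under 0.05, and the other tools called 11 to 12 and 13. Aqp1 did not pass under any alternative and changed sign under upper quartile scaling (0.021), library size only (0.015), limma on log2(FPKM + 1) without and with a filter of 0.5 FPKM (0.016 and 0.016), limma on log2(FPKM + 0.1) with that filter (0.016), and without control replicate 3 (0.026) or replicate 3 labelled cKO (0.00084). Aqp7 and Aqp11 did not pass under any of the 18 alternatives that kept them.

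With each library left out in turn, 3 aquaporins were called each time, and log2 fold changes ran from 0.43 to 0.46 for Aqp3, 2.77 to 2.96 for Aqp5, 0.44 to 0.62 for Aqp9, -0.033 to 0.026 for Aqp1, 0.36 to 1.44 for Aqp7 and 0.15 to 1.33 for Aqp11. With the replicate number as a block, 9212 genes were called. Correlations of deviations between same-numbered libraries were -0.0011, -0.0045 and 0.0083, so the deviations gave no sign of pairing by number. If the spread among libraries is technical, pairing of animals would not show in them. The block changed no aquaporin's call. Aqp4, Aqp7 and Aqp11 had 36 to 100 counts over 6 libraries. The variance of their unscaled counts within a group was 4.69 to 7.35 times the mean, above counting error. For Aqp1, Aqp3, Aqp5 and Aqp9 this ratio was 18.4, 22.6, 4.76 and 8.69 in control. In the libraries labelled cKO it was 0.108, 1.05, 1.28 and 3.51 in the same order. There Aqp1 lay below counting error, and Aqp3 and Aqp5 lay near it.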
